A study of Mus musculus with 3 samples.

Results

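The interferon response module comprised 39 listed mouse genes that are induced by interferons or that carry the interferon signal to the nucleus. Members were found by matching the RefSeq accession of each array probe to a mouse symbol, and 37 of the 39 had a probe named in that way, against 20546 named genes on the array in all. Mx1 and Mx2, dynamin-like antiviral GTPases, had no matched probe and were not analysed here. The list held 3 classes: 23 antiviral genes of the type I interferon response (21 with a probe), 8 GTPases induced mainly by interferon gamma, and 8 regulators, made up of interferon regulatory factors (IRFs) and Stat2. The listing was by name and took no measured value as a criterion, but earlier results of these data were known when it was made.

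RNA from 3 tissues of female mice was hybridised to 1-colour mouse expression arrays, with 1 array per group. The groups were spleen treated with SiO2 (silicon dioxide, which remodels the spleen in the series' design), spleen treated with SiO2-3TF-3C (called hepatized spleen in the design; the labels do not spell out 3TF-3C) and normal liver tissue. Both spleen groups therefore share the SiO2 treatment, and both were collected on day 82. The design text pooled 5 samples per group, without saying whether that held for the liver, a positive control by its labels, for which no day is given. RNA was prepared with a blood RNA kit whose steps lyse red and white cells differently and deplete globin, per the labels' protocol. Strain, age and the route of treatment were not given in the sources used here.

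With 1 array per group, no difference below has a replicate check, and no test or p-value was possible. A difference was called only by size, at least 2-fold, that is at least 1 on the log2 scale. A level is the log2 signal of a probe minus the 75th percentile of that array's signals, so 0 marks the signal at that percentile, and levels of different genes come from different probes and are not compared with each other. The scanner software's own error for a difference of 2 arrays was 0.20 on the log2 scale for the median member, which covers spot measurement but not animals. The percentile signal was 569 intensity units for the SiO2 spleen, 515 for the SiO2-3TF-3C spleen and 390 for the liver, and 77.2 to 81.3% of gene spots were well above background. All 37 members with a probe were well above background on all 3 arrays, so no member was lost to a filter on low signal, and no spot was saturated.

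Type I interferons bind a receptor of Ifnar1 and Ifnar2, and the kinases Jak1 and Tyk2 then phosphorylate STAT proteins, of which Stat2 joins Irf9 in a complex that binds the interferon-stimulated response element (ISRE) in promoters. Interferon gamma binds a receptor of Ifngr1 and Ifngr2, and Jak1 and Jak2 then activate a STAT dimer that binds the gamma-activated site (GAS). Spleen holds many lymphoid and myeloid cells that make and answer interferons, and liver cells, hepatocytes included, answer them with antiviral and GTPase genes.

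The promoters of the members show these elements as letters. The windows below carry the ISRE letters before the start site (the stretch with the most matches), for members with a match there whose full promoter is not printed further on; they are RefSeq sequence of build GRCm38.p6 in the direction of the gene, with the matching letters in capitals and flanks in lower case. They are shown because the element recurs across antiviral genes, GTPases and regulators.
Ifit1: ttcagTTTCACTTTCcagtc
Ifit3: gtaagTTTCACTTTCctctt
Isg15: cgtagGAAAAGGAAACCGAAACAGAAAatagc
Oas1a: ctcggGAAATGGAAACTGAAAatct
Oas1g: ctcggGAAATGGAAACTGAAAat
Oas3: gaggaGAAAACGAAAgtgaa
Bst2: tccagGAAAATGAAACTGAAAggctg
Irgm1: ttcaaGAAATAGAAACCGAAActgat
Irgm2: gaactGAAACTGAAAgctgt
Gbp2: tttagTTTCACTTTCactgt
Gbp3: cacagTTTCAGTTTCTATTTCccaga
Irf2: gaagtGAAAATGAAAttgac
Stat2: cctggTTTCAGTTTCctttc
The first of these lies at chr19:34640780-34640799 on the + strand, 104 bases before the Ifit1 start site, and the Isg15 window at chr4:156200870-156200901 on the - strand, 78 bases before its start. Ifit1, Ifit3 and Gbp2 carried the same 10 letters, TTTCACTTTC, and the neighbouring genes Oas1a and Oas1g the same 16, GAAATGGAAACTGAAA. Overlapping matches ran together into 1 stretch of capitals in Isg15, which held 3 matches, and in Oas1a, Oas1g, Bst2, Irgm1 and Gbp3, which held 2 each.

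Of the 39 members, 32 had a promoter in the RefSeq table, a window of 300 bases from 250 before to 50 after the start site; Mx1, Mx2, Oas2, Zbp1, Usp18, Iigp1 and Gbp6 had none there. The ISRE letters GAAANNGAAA, or TTTCNNTTTC on the other strand, were in 19 of the 32 (59.4%), against 3.99% of all 27025 genes in the table. The GAS letters TTCNNNGAA, which read the same on both strands, were in 12 of 32 (37.5%), against 9.55% of all genes. By class, the ISRE letters were in all 6 GTPases with a promoter, in 11 of 18 antiviral genes (61.1%) and in 2 of 8 regulators (25%), and the GAS letters in 3 of 6, 6 of 18 and 3 of 8. Several members, such as Oas1a and Oas1g, are neighbouring copies of each other, so the counts are not of independent genes. A match is a description of letters, not a measured binding site.

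**Figure D1:**
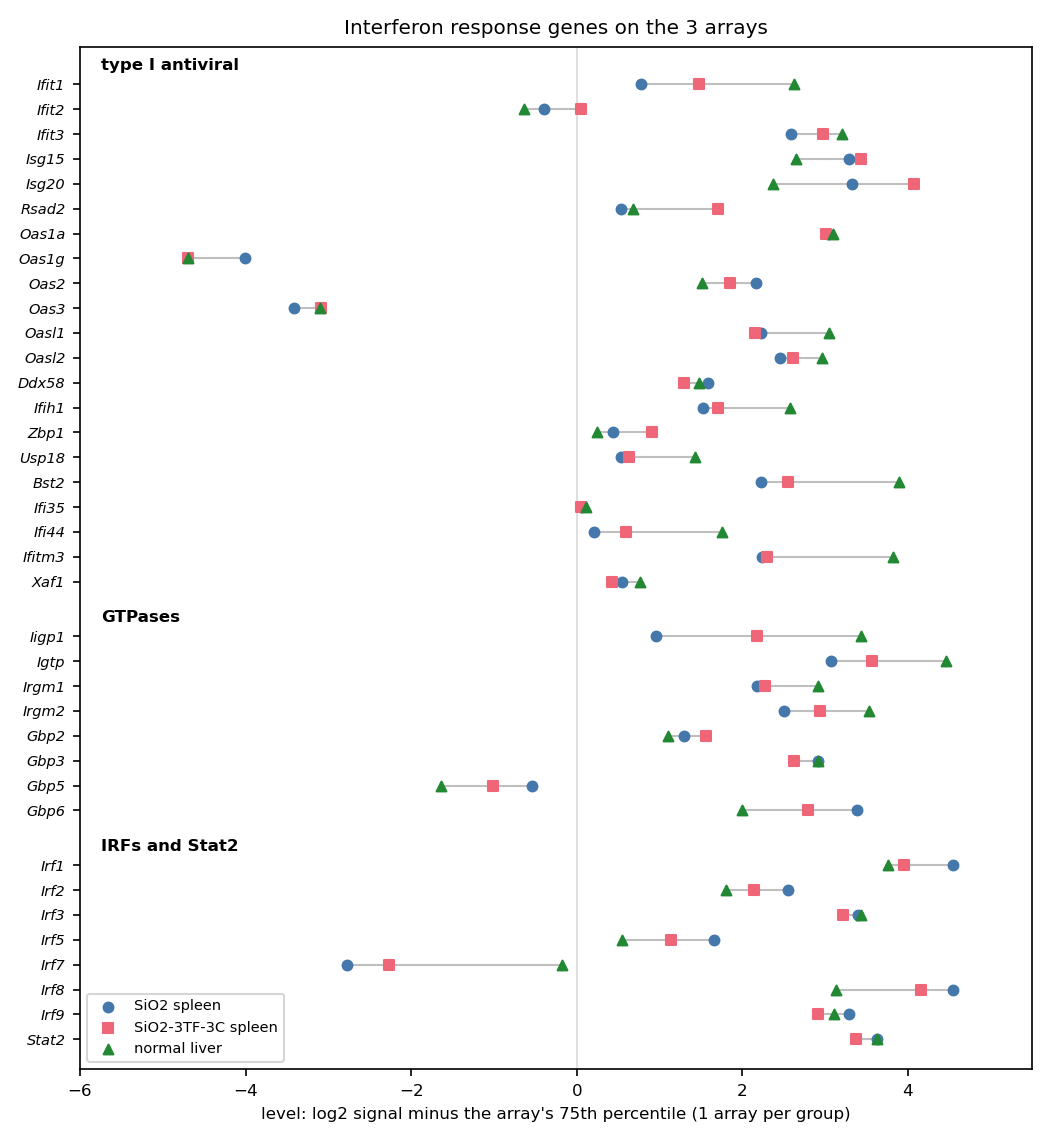
Level of each of the 37 members (log2 signal minus the array's 75th percentile) on the 3 arrays, with 1 point per array and no replicate; members are grouped as antiviral genes, GTPases and regulators. Irf7 and Iigp1 show the widest gap between the SiO2 spleen and liver points, and the points of Oas1a, Ifi35 and Irf3 nearly coincide.

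Across the module the SiO2-3TF-3C spleen lay close to the SiO2 spleen. Of 37 members, 2 (5.41%) were higher by 2-fold or more after SiO2-3TF-3C and 0 were lower by that size, where 5.24 percent of all 17640 genes measured were at least 2-fold higher and 1.39 percent at least 2-fold lower, so the share that was higher was near that of all genes. The 2 were Iigp1 and Rsad2. With normexp background correction Iigp1 alone passed the threshold, and Rsad2 stood just under it. The members' median log2 difference was 0.09, against -0.15 over all genes, whose middle part ran from -0.37 to 0.11 (quartiles). At a 1.5-fold threshold 4 members were higher and 3 lower (8.65 and 9.36 percent of all genes). The tissues are bulk samples, in which fewer cells of a type and less RNA per cell cannot be told apart.

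The classes differed in the side on which their members lay, in differences that were mostly below 2-fold. The antiviral genes had a median log2 difference of 0.16, and 18 of 21 lay above the median of all genes. Of these 21 differences, 12 were beyond the scanner's error for the gene, in either direction. The class median stood 0.31 above that of all genes, and from 0.19 with normexp to 0.46 as the mean over probes. The GTPases had a median of 0.19 with 5 of 8 above it, and the regulators a median of -0.38 with 1 of 8, Irf7, above it. In the authors' deposited table the regulators' median was -0.15, beside -0.09 over all genes there. That table held only 4 of the IRFs and not Stat2, so this median is over fewer regulators. With quantile normalization the regulators' median stood -0.10 from that of all genes, against -0.23 in the values used here. Gene families inside the classes divided further. The 3 IFIT genes were all higher (0.39 to 0.70) and so were the 4 direct antiviral effectors Rsad2, Isg20, Bst2 and Ifitm3 (median 0.54), although the Ifitm3 difference of 0.07 turned to -0.04 with scaling to housekeeping genes, while the 6 measured OAS genes centred on -0.05. Among the GTPases, all 4 immunity-related GTPases (IRGs) were higher (median 0.46), under each alternative run. The Irgm1 difference of 0.11 was within the scanner's error of 0.20, and its lowest value across the alternatives was 0.003. Of the 4 guanylate-binding proteins (GBPs), 3 were lower (median -0.38) with the brighter probe of Gbp6 and 2 (median -0.01) with its dimmer probe, so the family had no settled side. The GTPase median rested on the choice of probe: with the dimmest probe of each gene it was 0.46, and in the authors' deposited table it was 0.56.

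**Figure D2:**
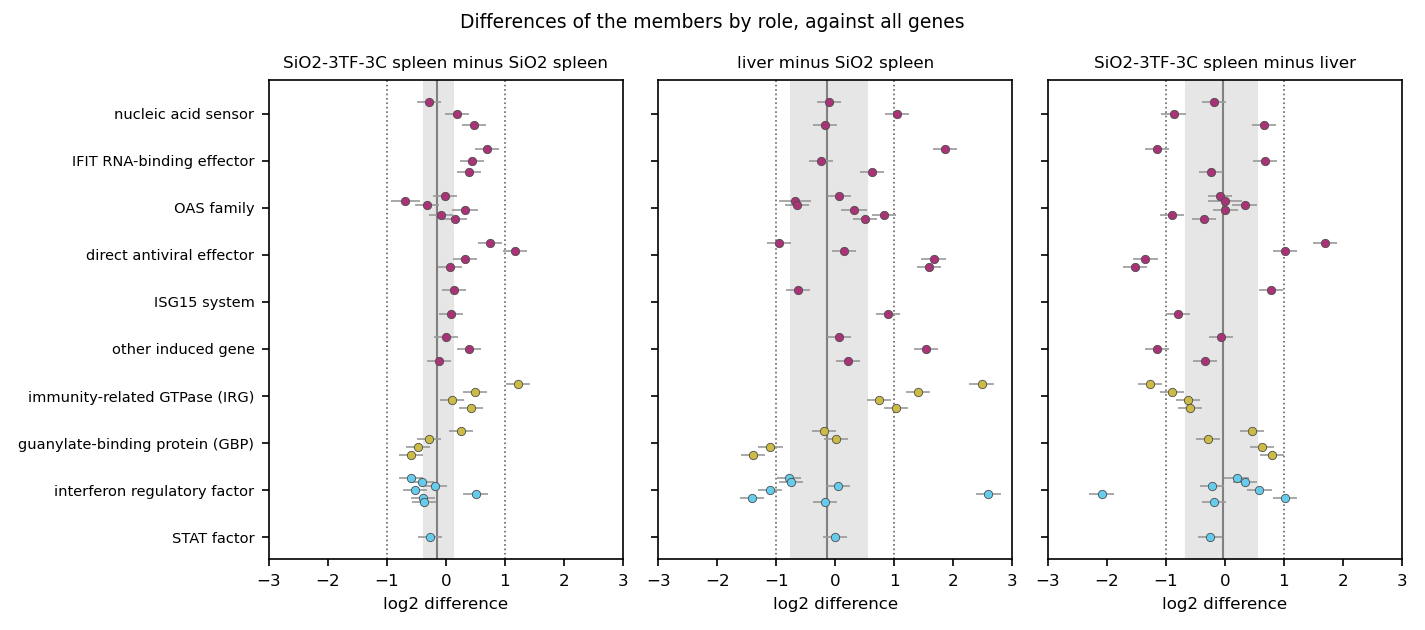
Log2 difference of each member in the 3 comparisons, grouped by molecular role; each point is 1 gene from 1 array against 1 array with the scanner's error as its bar, the grey line and band are the median and quartiles of all genes, and dotted lines mark 2-fold. All 4 IRG points lie above 0 for the SiO2-3TF-3C spleen and the liver against the SiO2 spleen, and 6 of the 7 IRF points lie below 0 for the SiO2-3TF-3C spleen against the SiO2 spleen.

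Among the antiviral genes, Rsad2 (viperin, a radical SAM enzyme that makes a chain-terminating nucleotide) had the widest difference between the spleens. Its level was 0.53 in the SiO2 spleen, 1.71 in the SiO2-3TF-3C spleen and 0.68 in the liver, a log2 difference of 1.17 between the spleens (2.26-fold). The liver thus lay near the SiO2 spleen, and the SiO2-3TF-3C spleen stood above both. Isg20, an exonuclease that degrades RNA, was at 3.33 in the SiO2 spleen, 4.08 in the SiO2-3TF-3C spleen and 2.37 in the liver, a difference of 0.75 between the spleens (1.69-fold). Here too the SiO2-3TF-3C spleen was highest of the 3, but the liver was the lowest. These 2 genes had the widest differences of the class among those with a promoter in the table, so their 250 bases before the start site are printed, Rsad2 from chr12:26456453-26456702 on the - strand and Isg20 from chr7:78913174-78913423 on the + strand. The capitals mark an ISRE match in Rsad2 and a GAS match in Isg20.
Rsad2: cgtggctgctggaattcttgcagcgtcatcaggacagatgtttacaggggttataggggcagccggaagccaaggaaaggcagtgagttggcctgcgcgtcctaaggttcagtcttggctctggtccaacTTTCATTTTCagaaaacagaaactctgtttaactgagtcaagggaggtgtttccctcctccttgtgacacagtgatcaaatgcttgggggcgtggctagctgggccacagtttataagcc
Isg20: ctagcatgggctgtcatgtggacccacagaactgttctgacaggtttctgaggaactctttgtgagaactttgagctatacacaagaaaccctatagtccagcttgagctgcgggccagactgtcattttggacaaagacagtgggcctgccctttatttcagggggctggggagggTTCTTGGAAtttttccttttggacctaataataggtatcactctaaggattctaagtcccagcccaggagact
Isg20 held no ISRE letters in this stretch, and Rsad2 no GAS letters.

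The IFIT genes encode proteins that bind foreign RNA, and their 3 arrays did not run in one order. Ifit1 stood at 0.77 in the SiO2 spleen, 1.47 in the SiO2-3TF-3C spleen and 2.63 in the liver. Ifit3 was at 2.59, 2.98 and 3.21, and its step between the SiO2-3TF-3C spleen and the liver changed sign with quantile normalization and in the authors' deposited table. Ifit2 instead was lowest in the liver, at -0.39, 0.05 and -0.63. Compared with the SiO2 spleen, all 3 were higher after SiO2-3TF-3C, by 0.70, 0.39 and 0.45 for Ifit1, Ifit3 and Ifit2.

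Isg15, a ubiquitin-like protein joined to other proteins in infected cells, was at 3.29, 3.44 and 2.65 in SiO2 spleen, SiO2-3TF-3C spleen and liver. Usp18, the protease that removes Isg15 and also restrains the type I receptor, was at 0.54, 0.63 and 1.43 in the same order. Between the spleens the differences of these 2 genes, 0.14 and 0.09, were within the scanner's error of 0.20. In the liver they lay on opposite sides of the SiO2 spleen, Isg15 lower by -0.64 and Usp18 higher by 0.89.

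The oligoadenylate synthetases (OAS) sense double-stranded RNA and make short oligoadenylates that act as a messenger in infected cells. Oas1a was nearly even across the arrays at 3.04, 3.02 and 3.09. Oas2 was at 2.17, 1.85 and 1.51, highest in the SiO2 spleen. The probes of Oas1g (-4.01, -4.69 and -4.69) and Oas3 (-3.42, -3.09 and -3.10) were dim on every array, though above background. Oasl1 (2.23, 2.15 and 3.05) and Oasl2 (2.46, 2.62 and 2.97), the OAS-like members, were highest in the liver. Oas1a and Oas1g are near-identical copies, so either probe may read transcripts of its neighbours.

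The cytoplasmic sensors showed small differences between the spleens. Ddx58 (RIG-I), which detects RNA with a triphosphate end, was at 1.59, 1.30 and 1.48 in SiO2 spleen, SiO2-3TF-3C spleen and liver. Ifih1 (MDA5), which detects long double-stranded RNA, was at 1.53, 1.71 and 2.58. Zbp1, a sensor of left-handed nucleic acid that can trigger necroptosis, was at 0.43, 0.92 and 0.25. Of these, the liver difference of Ifih1 (1.05) was past 2-fold, and no spleen difference of the 3 was.

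Bst2 and Ifitm3, membrane proteins that hold back budding and entering virus, had their main difference in the liver. Bst2 was at 2.23 in the SiO2 spleen, 2.55 in the SiO2-3TF-3C spleen and 3.89 in the liver. Ifitm3 was at 2.24, 2.30 and 3.82. For each gene the spleens lay within 0.32 of each other, and the liver stood above both. Ifi44, an interferon-induced gene, had the same order at 0.21, 0.60 and 1.75, and Ifi35 (0.05, 0.05 and 0.12) and Xaf1 (0.54, 0.42 and 0.76), which promotes cell death, varied little between the spleens.

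The GTPases act on membranes around intracellular microbes, and the list held 2 families of them, 4 IRGs and 4 GBPs. Iigp1 had the widest difference of all members between the spleens. Its level was 0.96 in the SiO2 spleen, 2.17 in the SiO2-3TF-3C spleen and 3.44 in the liver, a log2 difference of 1.21 between the spleens (2.32-fold) and of 2.48 between liver and SiO2 spleen (5.58-fold). The other IRGs ran in the same order of arrays. Igtp was at 3.07, 3.56 and 4.46, Irgm2 at 2.50, 2.93 and 3.53, and Irgm1, which regulates the other IRGs, at 2.17, 2.28 and 2.91. For all 4 IRGs the SiO2-3TF-3C spleen therefore lay between the SiO2 spleen and the liver. For Irgm1 the step between the spleens (0.11) was within the scanner's error.

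The GBPs, which break open the vacuoles of bacteria and feed the inflammasome, did not follow that order. Gbp5 was highest in the SiO2 spleen and lowest in the liver, at -0.54 in the SiO2 spleen, -1.01 in the SiO2-3TF-3C spleen and -1.64 in the liver. Gbp6 was at 3.39, 2.79 and 1.995 on the probe used here, but its other probe ran the opposite way, as described further on. Gbp2 (1.30, 1.56 and 1.10) and Gbp3 (2.91, 2.63 and 2.92) each varied by 0.46 or less across the 3 arrays. Igtp and Gbp5 had the widest spleen differences of the class among genes with a promoter in the table, and the stretches before their starts lie at chr11:58199306-58199555 and chr3:142496684-142496933, both on the + strand. The capitals mark GAS and ISRE matches, in that order in Igtp and as GAS, ISRE and GAS in Gbp5.
Igtp: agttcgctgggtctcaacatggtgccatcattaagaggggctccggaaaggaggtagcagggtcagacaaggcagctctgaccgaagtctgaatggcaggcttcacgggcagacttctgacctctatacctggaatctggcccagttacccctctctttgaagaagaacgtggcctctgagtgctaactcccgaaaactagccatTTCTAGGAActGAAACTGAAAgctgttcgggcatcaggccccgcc
Gbp5: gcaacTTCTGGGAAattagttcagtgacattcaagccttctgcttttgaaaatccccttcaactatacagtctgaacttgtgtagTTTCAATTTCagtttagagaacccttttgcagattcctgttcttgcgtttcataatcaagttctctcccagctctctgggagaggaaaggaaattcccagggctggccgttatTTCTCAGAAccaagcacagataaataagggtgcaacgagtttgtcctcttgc
Both stretches thus held both elements, although the measured differences of Igtp and Gbp5 had opposite signs. The Irgm2 window printed above occurs letter for letter in the Igtp promoter.

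After SiO2-3TF-3C, 7 of the 8 regulators were lower, each by less than 2-fold. The same 7 lay below the median of all genes, which was itself negative (-0.15). The Irf3 difference of -0.18 was within the scanner's error of 0.20. Irf1, which drives interferon gamma targets, was at 4.54 in the SiO2 spleen, 3.96 in the SiO2-3TF-3C spleen and 3.76 in the liver. Irf5, which acts after Toll-like receptors in myeloid and B cells, was at 1.66, 1.14 and 0.55. Irf2, which opposes Irf1, was at 2.55, 2.14 and 1.80, and Irf8, needed for some dendritic cells and for monocytes, at 4.55, 4.16 and 3.13. In Irf2, Irf5 and Irf8 the order of arrays was the reverse of that of the IRGs. Irf1 was also highest in the SiO2 spleen, but its other probe gave 0.00 for the liver against the SiO2 spleen and -0.20 for the SiO2-3TF-3C spleen against the liver. Irf1 and Irf5 had the widest spleen differences of the class (-0.59 and -0.52), and of the regulators Irf1 alone was past 1.5-fold. Their promoters lie at chr11:53769764-53770013 and chr6:29526375-29526624, both on the + strand, and the capitals mark a GAS match in Irf1.
Irf1: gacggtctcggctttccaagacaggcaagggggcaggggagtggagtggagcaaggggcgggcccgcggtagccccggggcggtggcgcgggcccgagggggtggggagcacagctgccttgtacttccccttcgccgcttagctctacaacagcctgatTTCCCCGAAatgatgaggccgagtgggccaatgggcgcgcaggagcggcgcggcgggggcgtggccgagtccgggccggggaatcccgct
Irf5: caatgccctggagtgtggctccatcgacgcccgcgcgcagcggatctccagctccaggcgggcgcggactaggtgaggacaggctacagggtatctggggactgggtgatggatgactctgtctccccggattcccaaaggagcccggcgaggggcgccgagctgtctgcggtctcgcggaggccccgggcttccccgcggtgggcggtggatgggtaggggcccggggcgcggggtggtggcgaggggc
The Irf5 stretch held neither set of letters.

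Irf7, which amplifies type I interferon production, ran against the other regulators. Its level was -2.77 in the SiO2 spleen, -2.26 in the SiO2-3TF-3C spleen and -0.18 in the liver, from 1 probe with a low signal in both spleens. The log2 difference was 0.51 between the spleens and 2.60 between the liver and the SiO2 spleen (6.05-fold). That liver difference was the widest of all members on the probes used. Across the alternatives it ran from 1.87 to 2.60, and that of Iigp1 from 2.27 to 3.66, so this rank was not settled. Irf3, which switches on interferon beta after sensing, was at 3.40, 3.21 and 3.44. Irf9 (3.29, 2.92 and 3.11) and Stat2 (3.63, 3.37 and 3.63), partners in the complex that binds the ISRE, also differed little across the arrays. All 3 were lowest in the SiO2-3TF-3C spleen, by 0.37 or less against the SiO2 spleen. Against the liver, their differences of -0.22, -0.19 and -0.26 each changed sign under at least 1 alternative, so that place was not settled.

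Normal liver against the SiO2 spleen gave more differences in both directions. In the liver 9 of 37 members (24.3%) were at least 2-fold higher and 4 (10.8%) at least 2-fold lower, where 15.4 percent of all 17359 genes were higher and 17 percent lower by that size. The 9 were Irf7 (2.60), Iigp1 (2.48), Ifit1 (1.85), Bst2 (1.67), Ifitm3 (1.59), Ifi44 (1.54), Igtp (1.39), Ifih1 (1.05) and Irgm2 (1.03). The 4 were Irf8 (-1.41), Gbp6 (-1.39, on its brighter probe only), Irf5 (-1.11) and Gbp5 (-1.10). By class, 5 of 21 antiviral genes were higher and 0 lower (median 0.22), 3 of 8 GTPases higher and 2 lower (median 0.37), and 1 of 8 regulators higher and 2 lower (median -0.46), beside a median of -0.14 over all genes. The higher GTPases were all IRGs (family median 1.21). The lower ones were GBPs (family median -0.65), but with the dimmer Gbp6 probe 1 GBP was lower and 1 higher (median -0.10). At 1.5-fold, 13 members were higher and 10 lower, where 23.9 and 31.2 percent of all genes were. The antiviral median changed sign in the authors' deposited table, at -0.02, and the GTPase median was 1.11 with the dimmest probe of each gene.

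Set directly against the liver, the SiO2-3TF-3C spleen had 3 members at least 2-fold higher and 6 at least 2-fold lower (8.11% and 16.2%), where 10.7 percent of all 17213 genes were higher and 15.9 percent lower. Those higher were Isg20 (1.71), Rsad2 (1.03) and Irf8 (1.02). Those lower were Irf7 (-2.09), Ifitm3 (-1.52), Bst2 (-1.34), Iigp1 (-1.26), Ifit1 (-1.16) and Ifi44 (-1.15). The module's median was -0.19 and that of all genes -0.03, with class medians of -0.18 for antiviral genes, -0.44 for GTPases and 0.01 for regulators. At 1.5-fold, 9 members were higher and 12 lower, where 23.3 and 27.5 percent of all genes were. With quantile normalization, the counts past 2-fold were 5 higher and 4 lower, and in the authors' deposited table the antiviral median was 0.14. The 3 comparisons share arrays, so each one's values are fixed by those of the other two, and they are given side by side and not as separate evidence.

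By array, 19 of the 37 members were highest in the liver (51.4%), 11 in the SiO2 spleen (29.7%) and 7 in the SiO2-3TF-3C spleen (18.9%), where 40.9%, 45.4% and 13.7% of the 16087 genes above background on all 3 arrays were. Of the antiviral genes, 12 were highest in the liver, 6 in the SiO2-3TF-3C spleen and 3 in the SiO2 spleen. The 6 with the SiO2-3TF-3C spleen highest were Ifit2, Isg15, Isg20, Rsad2, Oas3 and Zbp1, of which Rsad2 alone stood at least 2-fold above the SiO2 spleen. Of the regulators, 6 were highest in the SiO2 spleen and 0 in the SiO2-3TF-3C spleen. Orders that rest on steps within 0.20, such as that of Oas1a, Ifi35 or Irf3, are not beyond the scanner's error.

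Of the 37 members, 12 had more than 1 probe, and for 11 of them more than 1 probe gave a measured difference. The value above is from the brightest probe on average. Between the spleens the probes of 1 gene, Gbp6, lay over 1 apart on the log2 scale, and the median gap was 0.39. In the liver comparison those of Gbp6, Iigp1 and Zbp1 did, with a median gap of 0.56. The dimmer Gbp6 probe gave 1.25 between the spleens where the brighter gave -0.59, and 2.31 against -1.39 for the liver, so no direction is given for Gbp6. The GBPs form a cluster of close copies, and a probe may read more than 1 of them. The dimmer Iigp1 probe gave wider differences in the same direction, 1.70 between the spleens and 3.66 for the liver. That of Isg15 gave 0.94 between the spleens, against 0.14, and that of Ifih1 0.89, against 0.18, so for these 2 genes the size of the spleen difference depended on the probe. The dimmer Irf1 probe gave -0.19 between the spleens, against -0.59. For Zbp1, whose probes were designed to different transcripts, the liver difference was 1.10 on the other probe and -0.18 on the one used.

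**Figure D3:**
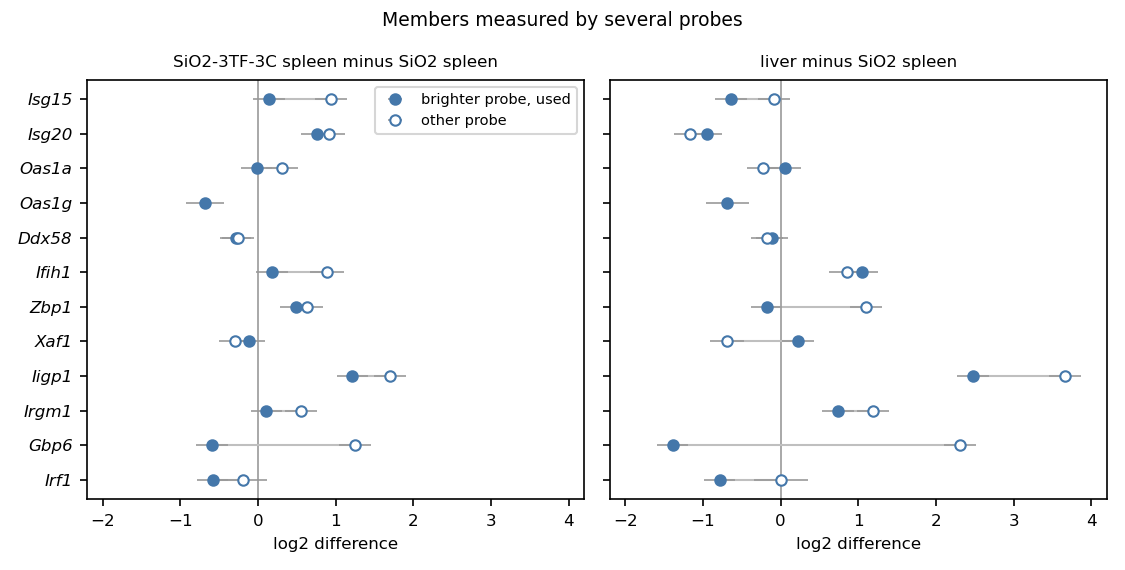
Log2 differences given by each probe of the members with several probes, in the comparisons with the SiO2 spleen; each point is 1 probe with the scanner's error as its bar, and filled points are the brighter probe, which was used. The 2 Gbp6 probes lie on opposite sides of 0 in both comparisons, and those of Iigp1 lie on the same side.

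Between the spleens, 5.24 percent of all genes were at least 2-fold higher and 1.39 percent at least 2-fold lower. Genes of the interferon pathway outside the module, in lists by role, showed no difference past 2-fold there. That held for the 12 measured ligands (median -0.24), 6 receptor chains (-0.29), 5 JAK-STAT genes (-0.13), 17 upstream sensing genes (-0.17), 7 inhibitors (-0.30), 30 other interferon-induced genes (-0.21) and 29 other interferon-gamma-induced genes (-0.11), beside -0.15 over all genes. The wider sets of induced genes thus lay near or below the median of all genes, where the antiviral members lay above it. The ligand genes Ifnb1, Ifna4, Ifne and Ifnk were not well above background. Among receptor chains, the spleen and liver differences from the SiO2 spleen were -0.58 and -0.82 for Ifnar1, -0.22 and 0.66 for Ifnar2, -0.31 and -0.96 for Ifngr1, and -0.42 and -0.60 for Ifngr2. Jak2, the kinase of the gamma receptor, differed by -0.61 in the SiO2-3TF-3C spleen and -2.01 in the liver.

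In the liver, 4 of 30 other interferon-induced genes (13.3%) were at least 2-fold higher and 5 (16.7%) lower, shares near the 15.4 and 17 percent of all genes, with a median of -0.53 against -0.14. They included Ifitm2 (1.75), Parp12 (1.67), Ifi27 (1.37) and Rtp4 (1.12) higher and Epsti1 (-1.71), Pml (-1.42), Ifi30 (-1.14) and Slfn8 (-1.08) lower. Of 29 other gamma-induced genes, 2 were higher (6.9%) and 6 lower (20.7%), and the 2 were the complement-system genes Serping1 (2.86) and C4b (1.41). Nos2, the inducible nitric oxide synthase, differed by -2.13, and Gbp9, Gbp8, Ciita and Cd274 by -1.44, -1.33, -1.31 and -1.24. Ido1, which degrades tryptophan, was not well above background in the liver and was at least 2.31-fold lower there. Of the inhibitors, Ptpn6 (-1.60), Socs1 (-1.42) and Ptpn2 (-1.06) were lower, and of the receptor chains Ifnlr1 (-1.44) and Il10rb (-1.18). Mavs, the mitochondrial adaptor of RIG-I and MDA5, was higher (1.11), and Sting1 (-1.44) and the receptors Tlr7 (-1.42) and Tlr4 (-1.10) were lower, as was Traf3 (-1.10). Among the ligands Ifna7 was higher (2.11) and Ifng (-1.40) and Ifna11 (-1.03) lower.

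**Figure D4:**
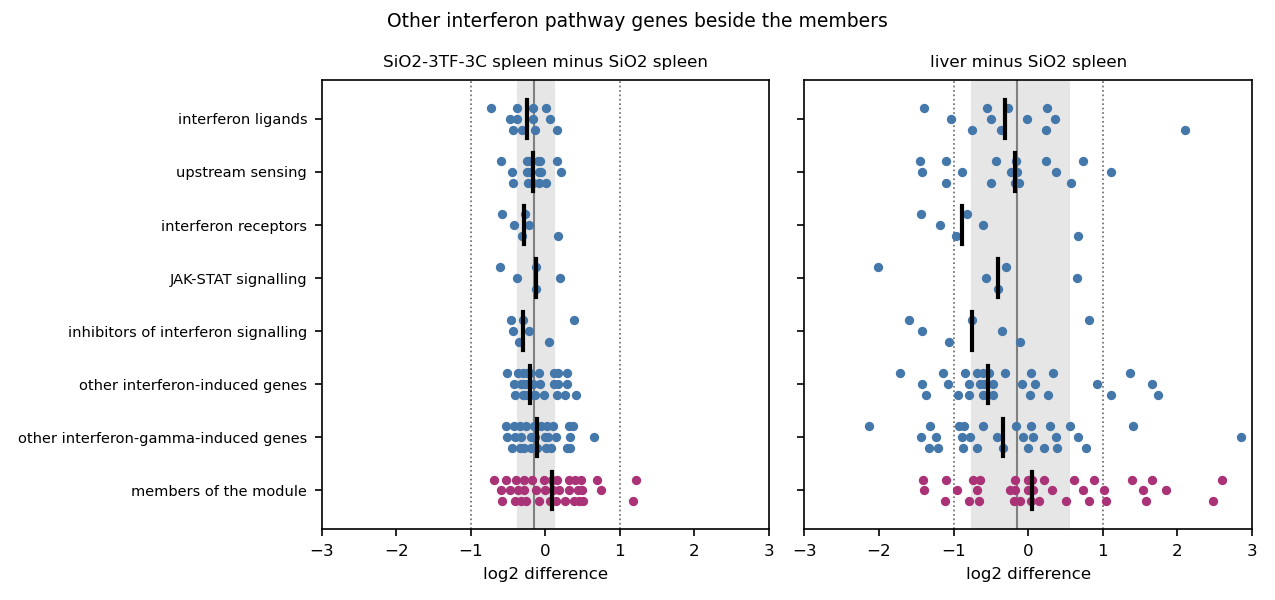
Log2 differences of the genes of each pathway list and, at the bottom, of the 37 members, for the SiO2-3TF-3C spleen and the liver against the SiO2 spleen; each point is 1 gene, black bars are list medians, the grey line and band are the median and quartiles of all genes, and dotted lines mark 2-fold. Between the spleens the 7 lists outside the module stay within 2-fold, with medians from -0.30 to -0.11.

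Markers of cell types that the 3 tissues could hold differed alongside the members. Of 8 hepatocyte markers, all 8 were higher by 2-fold or more in both the liver and the spleen given SiO2-3TF-3C, with a summed level (log2 of the list's summed scaled signal) of -1.64 in the SiO2 spleen, 7.58 in the SiO2-3TF-3C spleen and 8.94 in the liver; Ttr and Apoa1 on the SiO2 spleen array were not well above background. These arrays ran in the same order as those of Ifit1, Iigp1 and the other IRGs. The B cell, T cell and NK cell lists ran in the opposite order, the order of Irf2, Irf5 and Irf8: the summed B cell level was 7.09, 6.55 and 5.80, and the median differences of the 3 lists were -0.56, -0.50 and -0.51 in the SiO2-3TF-3C spleen and -1.20, -1.52 and -1.39 in the liver. The conventional dendritic cell list summed to 3.42, 2.90 and 2.02, and the plasmacytoid dendritic cell list, whose cells make type I interferon, to 6.17, 5.80 and 5.62. No lymphoid or dendritic marker was below background on any array. Macrophage markers had medians of -0.08 and -0.63, endothelial markers of -0.09 and 0.43 and fibroblast markers of -0.20 and -0.76, while the Kupffer cell genes Clec4f and Vsig4 were higher after SiO2-3TF-3C by 6.41 and 4.11, with the other 3 of that list within 0.34. Of 6 erythroid markers, 6 were 2-fold or more higher after SiO2-3TF-3C (median 2.10), as were 0 of 6 neutrophil markers (median 0.59). In the liver the medians of these lists were -1.44 and -1.43, with 5 of 6 erythroid markers above background there. By summed level both lists were highest in the SiO2-3TF-3C spleen and lowest in the liver, the order of Isg20. The part of these cell types in the members' differences was not tested.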

How the data were processed

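RNA of 3 pooled or single tissues was measured on 3 Agilent 1-colour arrays (design 026655). The scanner files hold spot intensity values as deposited, extracted with Feature Extraction 11.0.1.1 per the file headers; the submitters' processing notes name version 9.1. The authors' deposited value table holds log2 values (26049 probes, the method not stated). It runs in the same direction as the scanner values and shows no centring of genes. Its 3 arrays have the same maximum (16.58) and near-equal medians (5.91), as quantile normalization would leave them. The authors' table and the quantile alternative may therefore not be separate checks.

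Outlier and control spots were left out, spots of a probe averaged, and each level taken as log2 of the processed signal minus the array's 75th percentile. Of 39112 probes, 69.1% got a symbol through RefSeq accessions. Each gene took its brightest probe, and a gene entered a comparison when well above background on at least 1 of its 2 arrays. The normexp alternative (limma 3.58.1, offset 50) used the median spot signal, because the mean signal is not in the files used here. Differences were computed in Python 3.11.15 with pandas 2.3.3 and tested on simulated data. Precision is limited by 1 array per group; intervals across animals cannot be given.

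The members, gene lists and tests were chosen with earlier results of these data known. All members were named; from other lists, genes at least 2-fold apart, at most 6 per list and comparison, with the receptor and JAK-STAT genes; promoters were printed for the 2 members per class with the widest spleen difference. Alternatives were normexp, quantile, median and housekeeping scaling, the authors' table, the mean over probes, 2 filters on dim genes and a 1.5-fold threshold; the dimmest probe was added after seeing the data. Mx1 and Mx2 were not analysed here, and some genes of the other lists are not reported here by name.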

Additional observations from a re-analysis of the deposited data

How the results depend on the processing

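With 1 array per group, leaving out a replicate was not possible. No paired analysis was possible because each group has 1 array. Of 972 member values under 9 alternatives, 865 stayed within the scanner's error of the value given, 104 moved further and 3 turned a call around, all of Gbp6 in the liver (2.16 in the authors' table, 0.46 as the mean over probes, 2.31 on the dimmest probe). In all, 68 changed sign. The 2 filters on dim genes could not move any member, because all members were well above background on all 3 arrays. The mean over probes and the dimmest probe could not move a member with 1 probe. The 865 therefore include values fixed in advance and do not measure how stable the members were. The sign held throughout for 16 of 21 antiviral genes, 7 of 8 GTPases and 8 of 8 regulators between the spleens, for 17, 6 and 6 in the liver against the SiO2 spleen, and for 14, 6 and 4 in the SiO2-3TF-3C spleen against the liver. Between the spleens the GTPase median was 0.56 in the authors' table and 0.46 on the dimmest probe, 1 member was higher with normexp, and at 1.5-fold 4 were higher and 3 lower. In the liver against the SiO2 spleen, the authors' table gave an antiviral median of -0.019, a GTPase median of 0.97 and 2 lower members. The GTPase median was 0.71 as the mean over probes and 1.11 on the dimmest probe, and 10 members were lower at 1.5-fold. For the SiO2-3TF-3C spleen against the liver, the antiviral median was 0.14 in the authors' table, which gave 3 lower members, and the GTPase median was -0.13 with quantile normalization. Members higher there were 1 with normexp, 5 with quantile normalization, 1 with housekeeping scaling and 9 at 1.5-fold, and 12 were lower at 1.5-fold. The authors' table holds 28 of the members, so its counts are over fewer genes. The median of all genes shifted by over 0.1 with housekeeping scaling between the spleens (-0.11), with normexp in the liver (0.22) and, against the liver, with normexp (-0.14), quantile normalization (0.12) and the authors' table (0.14). Other causes of these changes were not tested. Signal over background did not limit the members, all of which were measured on all 3 arrays.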
